A study of Homo sapiens with 8 samples.

Results

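The 10 genes described here form the core of the mammalian circadian clock: the activators CLOCK and ARNTL, the repressors PER1, PER2, PER3, CRY1 and CRY2, the nuclear receptors NR1D1 and NR1D2, and the repressor BHLHE40. They were chosen by name, as genes of the clock, with earlier results of these data known. All 10 were listed in the tables of both cell lines, out of 12715 genes listed in either. The RNA came from CAL-62 and BCPAP, cell lines grown from human thyroid tumours, was selected for poly(A) tails and was sequenced. Both lines carry the label anaplastic thyroid carcinoma. The question of the study was what THZ1 does to their transcription. THZ1 binds covalently to CDK7, a kinase of TFIIH that acts on RNA polymerase II early in transcription. The 4 groups were CAL-62 with THZ1 at 100 nM for 6 h, CAL-62 with the vehicle DMSO, BCPAP with THZ1 at 100 nM for 6 h, and BCPAP with DMSO, each with 2 libraries. Each line was grown in a medium and an amount of serum of its own, so a difference between lines cannot be told apart from one between media. The submitters give no hour of harvest and no step that would set the cells to a common clock phase, and they do not say whether the libraries of a group came from separate cultures. The spread behind each p-value is that of these libraries alone and may be technical. Less RNA per cell and fewer cells with the RNA cannot be told apart in such bulk samples.

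Each library held between 16680749 and 19987389 reads in listed genes, and the 10 clock genes had between 40 and 5984 reads each. Values are RPKM-type values (reads per length of the gene and per scaled library total), as deposited. Of 9 thyroid follicular cell markers, the CAL-62 table listed PAX8 alone and the BCPAP table listed PAX8, NKX2-1 and FOXE1. The thyroglobulin gene TG and the receptor gene TSHR were in neither table. Of the markers of other cell types, none of 5 blood and none of 4 endothelial genes was listed, and 1 of 5 fibroblast genes, COL1A1, was listed in both lines.

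In the clock, CLOCK and ARNTL (now also called BMAL1) pair and bind E-box elements in the genes of their own repressors. The PER and CRY proteins then accumulate, enter the nucleus and block the pair, and their decay starts the next cycle. In a second loop, NR1D1 and NR1D2 repress ARNTL through RORE elements, at which the ROR receptors activate it, and DBP and its relatives act through D-box elements. Many of these mRNAs, PER1 and PER2 among them, are short-lived, and PER1, PER2 and BHLHE40 are also induced quickly by serum and other stimuli. In cell cultures that are not synchronised, the clocks of single cells run out of phase, so a bulk measurement averages over them.

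The letters of these elements were looked for in RefSeq promoter windows of assembly GRCh38.p14, from 250 bases before to 50 after a gene's start, on both strands. There were 15 such windows for the 10 genes. The E-box CACGTG occurred in 3 of them, in PER1, NR1D2 and BHLHE40, and in 7.26% of all 35116 windows. The RORE core, TAGGTCA or TGGGTCA, occurred in 4, in CRY2, NR1D2, ARNTL and CLOCK, and in 5.69% of all windows. The D-box TTATGTAA occurred in 2, in PER3 and NR1D2, and in 0.886% of all windows. The cAMP response element TGACGTCA occurred in 0 of the 15 windows and in 1.85% of all windows. A match is a string of letters and not a measured binding site, and no match says only that these letters are not in this window. The windows below belong to the genes with a match whose THZ1 and DMSO libraries did not overlap in CAL-62, and to NR1D2, whose second window held an E-box pair, a RORE core and a D-box. They are written 5′ to 3′ on the strand of the gene, with the matched letters of either strand in capitals.
PER3, chr1:7784041-7784340, plus strand: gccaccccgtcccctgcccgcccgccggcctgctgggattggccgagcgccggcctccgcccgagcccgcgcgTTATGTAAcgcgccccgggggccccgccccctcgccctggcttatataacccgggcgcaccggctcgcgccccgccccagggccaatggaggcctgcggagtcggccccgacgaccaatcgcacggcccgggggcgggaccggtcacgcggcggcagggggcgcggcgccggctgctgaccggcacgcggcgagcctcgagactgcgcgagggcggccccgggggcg
CRY2, chr11:45847225-45847524, plus strand: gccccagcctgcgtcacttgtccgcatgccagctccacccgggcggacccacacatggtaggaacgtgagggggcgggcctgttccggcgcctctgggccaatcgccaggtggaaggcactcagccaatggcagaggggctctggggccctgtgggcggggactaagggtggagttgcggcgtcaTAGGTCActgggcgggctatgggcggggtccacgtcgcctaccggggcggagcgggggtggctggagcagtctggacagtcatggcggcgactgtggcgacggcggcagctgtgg
NR1D2, chr3:23945871-23946170, plus strand: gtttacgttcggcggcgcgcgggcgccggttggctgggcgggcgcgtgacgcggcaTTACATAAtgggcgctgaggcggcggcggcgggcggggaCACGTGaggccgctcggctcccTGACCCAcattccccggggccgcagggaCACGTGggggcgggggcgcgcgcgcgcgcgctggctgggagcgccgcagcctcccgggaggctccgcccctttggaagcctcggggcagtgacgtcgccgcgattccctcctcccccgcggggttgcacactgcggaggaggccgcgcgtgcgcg
ARNTL, chr11:13277540-13277839, plus strand: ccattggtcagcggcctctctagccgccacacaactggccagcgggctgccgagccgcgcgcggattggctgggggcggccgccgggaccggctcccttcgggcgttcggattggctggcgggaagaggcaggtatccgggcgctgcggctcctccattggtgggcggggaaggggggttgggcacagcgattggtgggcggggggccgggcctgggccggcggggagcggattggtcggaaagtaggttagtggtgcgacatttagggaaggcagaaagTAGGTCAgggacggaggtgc
CLOCK, chr4:55545883-55546182, minus strand: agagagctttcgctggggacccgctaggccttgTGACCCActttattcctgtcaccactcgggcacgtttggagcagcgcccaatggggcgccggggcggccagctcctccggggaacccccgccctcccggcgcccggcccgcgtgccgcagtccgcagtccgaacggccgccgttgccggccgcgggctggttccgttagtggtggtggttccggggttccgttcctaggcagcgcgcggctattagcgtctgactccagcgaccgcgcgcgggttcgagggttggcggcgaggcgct
The capitals mark a D-box in PER3 and a RORE core in CRY2, ARNTL and CLOCK. In NR1D2 they mark, in order, the D-box, the first E-box, the RORE core and the second E-box. The RORE core of ARNTL lay 31 bases after the start, that of CRY2 began at position -65 and that of CLOCK at -217, counted back from it.

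None of the 10 clock genes passed the test after THZ1 in either line, in a fit that takes no account of the library number. In CAL-62 PER3, CLOCK and ARNTL were below both DMSO libraries in both THZ1 libraries, and CRY1 and CRY2 were above them. In BCPAP PER3 was again lower, and CRY1 and CRY2 again higher, in both THZ1 libraries. The changes in CAL-62 ran from -0.88 (PER3) to 0.74 (CRY1) on the log2(value + 1) scale, THZ1 minus DMSO. The CAL-62 values of CRY1 and CRY2 turned to -0.17 and -0.18 when the libraries were scaled to ribosomal protein genes.

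By limma with Benjamini-Hochberg adjustment over all genes, 0 of 10 clock genes were called in CAL-62 at an adjusted p under 0.05, where 4.62% of 11362 tested genes were called. In BCPAP 0 of 10 were called, where the share of all 11743 genes was 0%. At an unadjusted p under 0.05 there were 2 of 10 clock genes in CAL-62 (PER3 and CRY1), where 30.1% of all genes had one, and 0 in BCPAP, where 4.01% had one. limma-voom on recovered reads, fitted within each line alone, called 0 genes of any kind in each line. limma on the deposited values also called 0 when each line was fitted alone. In CAL-62, 2 of 10 clock genes had both THZ1 libraries above both DMSO libraries, against 30.1% of all genes, and 3 of 10 had both below, against 27.4%. In BCPAP these counts were 2 of 10 above, against 21.9% of all genes, and 1 of 10 below, against 16.4%. These shares are near the background or rest on 1 or 2 genes, so they say nothing particular about the clock. The same order of libraries in both lines was seen in 2 clock genes above (13.3% of all genes) and 1 below (11.2% of all genes).

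**Figure D1:**
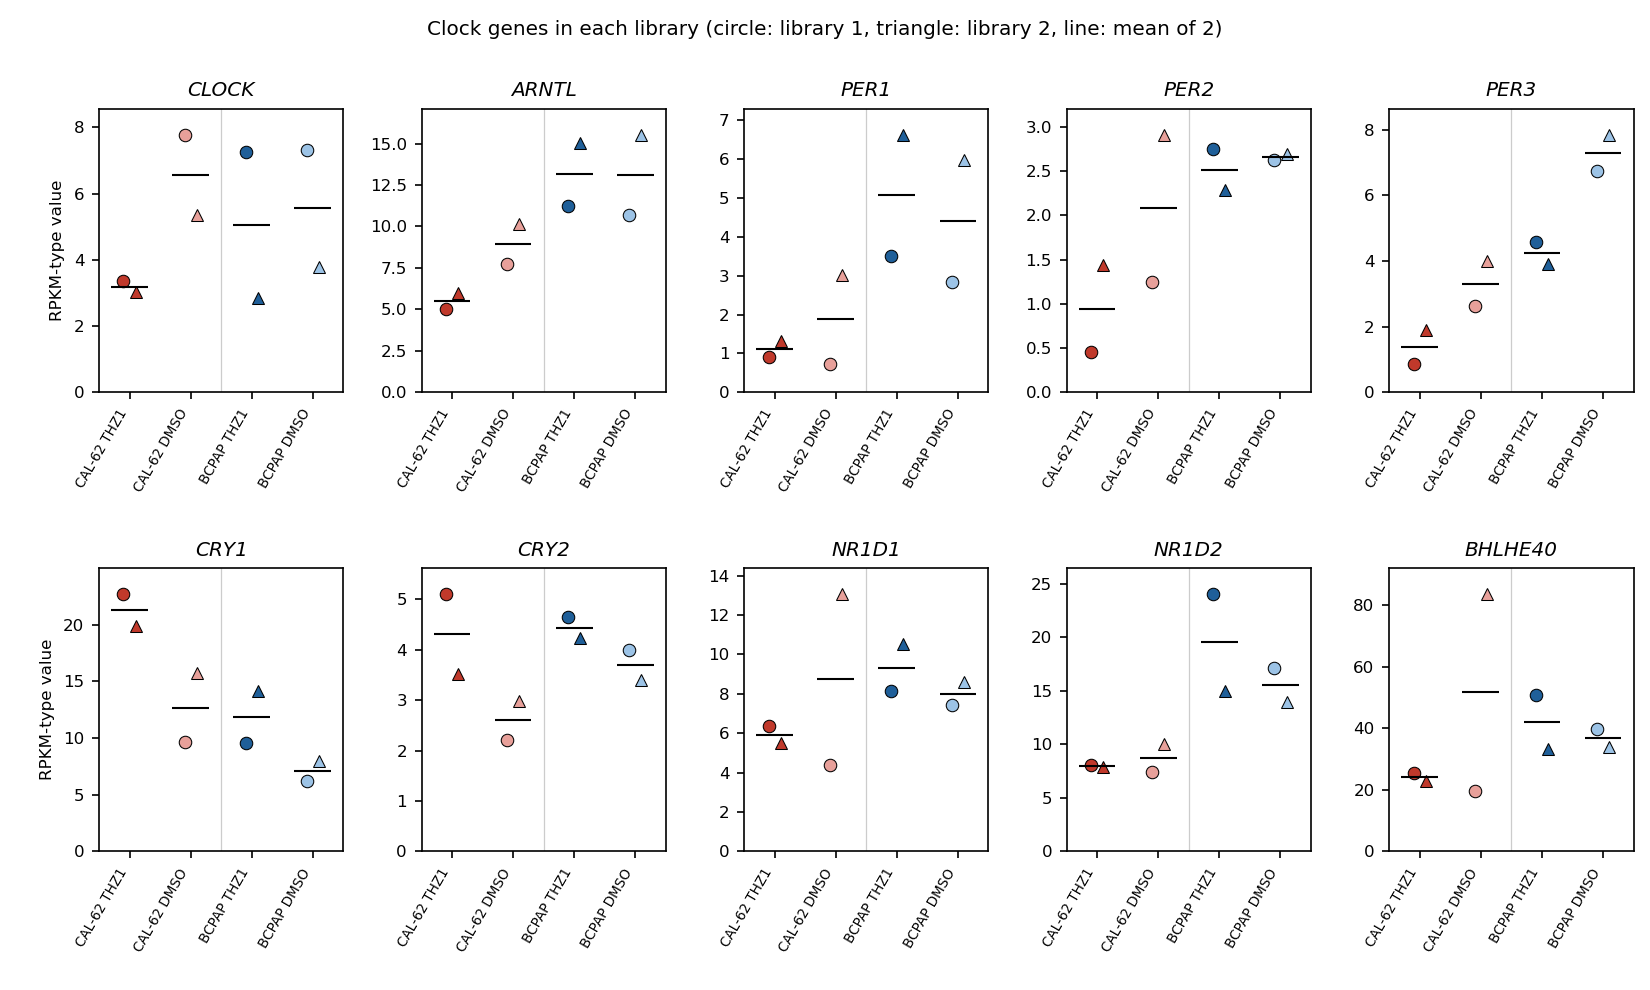
RPKM-type value (vertical axis, from 0) of each clock gene in each of the 8 libraries, with THZ1 left of DMSO for CAL-62 and then for BCPAP. Circles are library 1, triangles library 2, and the horizontal line is the mean of the 2. PER3 lies lower, and CRY1 and CRY2 lie higher, in the THZ1 libraries of both lines, while a single CAL-62 DMSO library stands high in BHLHE40 (83.7), NR1D1 (13.1) and PER1 (3.03).

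Both activators had lower values in the THZ1 libraries of CAL-62, and their groups overlapped in BCPAP. CLOCK, a transcription factor of the bHLH-PAS family, had 3.35 and 3.02 in the CAL-62 THZ1 libraries, against 7.78 and 5.34 in the CAL-62 DMSO libraries. Both THZ1 libraries were therefore below both DMSO libraries, by a change of -0.84 (SE 0.42, 95% interval -1.81 to 0.14, limma adjusted p = 0.221). In BCPAP CLOCK had 7.24 and 2.84 with THZ1 and 7.32 and 3.78 with DMSO. The groups overlapped, and the spread within each was far wider than the change of -0.17 (SE 0.42, limma adjusted p = 0.966). ARNTL, the partner of CLOCK, had 5.00 and 5.97 in the CAL-62 THZ1 libraries, against 7.71 and 10.2 with DMSO. Its groups did not overlap, with a THZ1 mean of 5.49 ± 0.683 and a DMSO mean of 8.94 ± 1.74 (SD, n = 2 each), a change of -0.61 (SE 0.27, 95% interval -1.24 to 0.03, limma adjusted p = 0.182). In BCPAP ARNTL had 11.2 and 15.04 with THZ1 and 10.7 and 15.5 with DMSO, a change of 0.01 (SE 0.27, limma adjusted p = 0.997). Library 1 of CLOCK was the higher one in all 4 groups, as in 25% of all genes, and library 2 of ARNTL was, as in 22.1%.

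Among the PER genes, whose proteins carry the negative arm of the loop, PER3 had the same direction in both lines. It had 0.852 and 1.90 in the CAL-62 THZ1 libraries, against 2.62 and 4.002 in the CAL-62 DMSO libraries. The groups did not overlap, and the THZ1 mean was 0.415 times the DMSO mean, a change of -0.88 (SE 0.30, 95% interval -1.56 to -0.19, limma adjusted p = 0.101). In BCPAP it had 4.58 and 3.90 with THZ1, against 6.76 and 7.85 with DMSO. These groups did not overlap either, at 0.581 times the DMSO mean and a change of -0.66 (SE 0.30, 95% interval -1.35 to 0.02, limma adjusted p = 0.932). The sign of PER3 was negative in both lines under all 16 alternatives run for each. As its groups did not overlap, leaving out a library could not have turned the sign, and only a rescaling of the libraries could. In CAL-62 the change lay between -1.52, with ribosomal protein genes as reference, and -0.56, without THZ1 library 1. Counts in CAL-62 were low, at 73 and 220 reads with THZ1 and 351 and 585 reads with DMSO.

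PER2, which mice need for lasting daily rhythms, had 0.457 and 1.43 in the CAL-62 THZ1 libraries, against 1.25 and 2.91 with DMSO. The groups overlapped, and the change was -0.66 (SE 0.34, 95% interval -1.44 to 0.13, limma adjusted p = 0.235). It was -0.26 without DMSO library 2, -0.29 without THZ1 library 1, -1.05 without DMSO library 1 and -1.03 without THZ1 library 2. The lowest of these values rested on 40 reads, the fewest of any clock gene. In BCPAP PER2 had 2.75 and 2.29 with THZ1, on either side of 2.62 and 2.69 with DMSO, a change of -0.06 (SE 0.34, limma adjusted p = 0.985). PER1, which responds fast to serum and hormones, had 0.908 and 1.33 in the CAL-62 THZ1 libraries, against 0.728 and 3.03 with DMSO. Both THZ1 values lay between the DMSO values. The change of -0.32 (SE 0.47, limma adjusted p = 0.674) became 0.29 without CAL-62 DMSO library 2. In BCPAP PER1 had 3.498 and 6.63 with THZ1 and 2.84 and 5.98 with DMSO. Library 2 was about as far above library 1 in each BCPAP group, and the change was 0.18 (SE 0.47, limma adjusted p = 0.969).

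The CRY genes were the clock genes with a positive change in both lines at the deposited scaling, and in CAL-62 both were negative with ribosomal protein genes as reference. CRY1, the stronger repressor of the CLOCK and ARNTL pair, had 22.7 and 19.9 in the CAL-62 THZ1 libraries, against 9.63 and 15.7 with DMSO. The groups did not overlap, with a THZ1 mean 1.68 times the DMSO mean and a change of 0.74 (SE 0.30, 95% interval 0.05 to 1.43, limma adjusted p = 0.148). It was 0.41 without DMSO library 1 and 1.07 without DMSO library 2. In BCPAP CRY1 had 9.60 and 14.2 with THZ1, against 6.19 and 7.96 with DMSO. The ratio was again 1.68 and the groups again did not overlap, with a change of 0.66 (SE 0.30, 95% interval -0.03 to 1.35, limma adjusted p = 0.932). CRY2 had 5.11 and 3.53 in the CAL-62 THZ1 libraries, against 2.22 and 2.98 with DMSO, a change of 0.55 (SE 0.25, 95% interval -0.03 to 1.14, limma adjusted p = 0.183), which was 0.34 without THZ1 library 1. In BCPAP it had 4.64 and 4.22 with THZ1, against 3.99 and 3.40 with DMSO, a change of 0.21 (SE 0.25, limma adjusted p = 0.938). In both lines the CRY2 groups did not overlap. The gap, from 2.98 to 3.53 in CAL-62 and from 3.99 to 4.22 in BCPAP, was narrower than the spread within each group of that line.

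NR1D1 and NR1D2 encode REV-ERBα and REV-ERBβ, heme-binding receptors that repress ARNTL. NR1D1 had 6.38 and 5.48 in the CAL-62 THZ1 libraries, against 4.38 and 13.1 with DMSO. The DMSO libraries lay on either side of the THZ1 libraries, and the change of -0.33 (SE 0.42, limma adjusted p = 0.621) became 0.36 without DMSO library 2. In BCPAP NR1D1 had 8.14 and 10.5 with THZ1 and 7.44 and 8.59 with DMSO, a change of 0.19 (SE 0.42, limma adjusted p = 0.963). NR1D1 overlaps THRA, a gene on the opposite strand, and the strand setting of the counting is not given, so its reads may include reads of THRA. NR1D2 had 8.06 and 7.86 in the CAL-62 THZ1 libraries, against 7.37 and 10.0 with DMSO, a change of -0.10 (SE 0.28, limma adjusted p = 0.831) that became 0.10 without DMSO library 2. In BCPAP NR1D2 had 24.0 and 14.97 with THZ1 and 17.2 and 13.9 with DMSO, overlapping groups with a change of 0.28 (SE 0.28, limma adjusted p = 0.932).

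BHLHE40 encodes DEC1, a repressor that competes for E-boxes and is induced by serum, hypoxia and other signals. It had 25.6 and 22.8 in the CAL-62 THZ1 libraries, against 19.7 and 83.7 in the CAL-62 DMSO libraries. The THZ1 libraries were close together and lay just above the first DMSO library, while the second stood far above all others. The change of -0.73 (SE 0.57, 95% interval -2.05 to 0.58, limma adjusted p = 0.409) became 0.28 without that library. In BCPAP BHLHE40 had 50.7 and 33.2 with THZ1 and 39.9 and 33.8 with DMSO, a change of 0.16 (SE 0.57, limma adjusted p = 0.975).

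Library 2 of CAL-62 DMSO was the higher one in a larger share of the clock genes than of all genes. In library 2 BHLHE40 was 4.25 times, PER1 4.16 times, NR1D1 2.99 times and PER2 2.33 times its level in library 1. PER1 and PER2 had 74 and 171 reads in library 1, where the median over genes was 667. Of the 10 clock genes, 9 were higher in library 2, against 46.6% of 10653 genes listed in both lines and tested, and 4 of 10 were at least 2-fold higher, against 3.90%. CLOCK was the exception, at 0.686 times. Genes at least 2-fold lower in library 2 were not counted, and the genes were not matched for level. The order of the libraries was not the same in all groups. PER1 and ARNTL were higher in library 2 of all 4 groups, as were 22.1% of all genes, whereas BHLHE40 was higher in library 2 of CAL-62 DMSO and lower in library 2 of the other 3 groups. What separates these libraries is not given in the labels, and its part in the THZ1 changes of PER1, PER2, NR1D1 and BHLHE40 was not tested beyond leaving a library out.

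**Figure D2:**
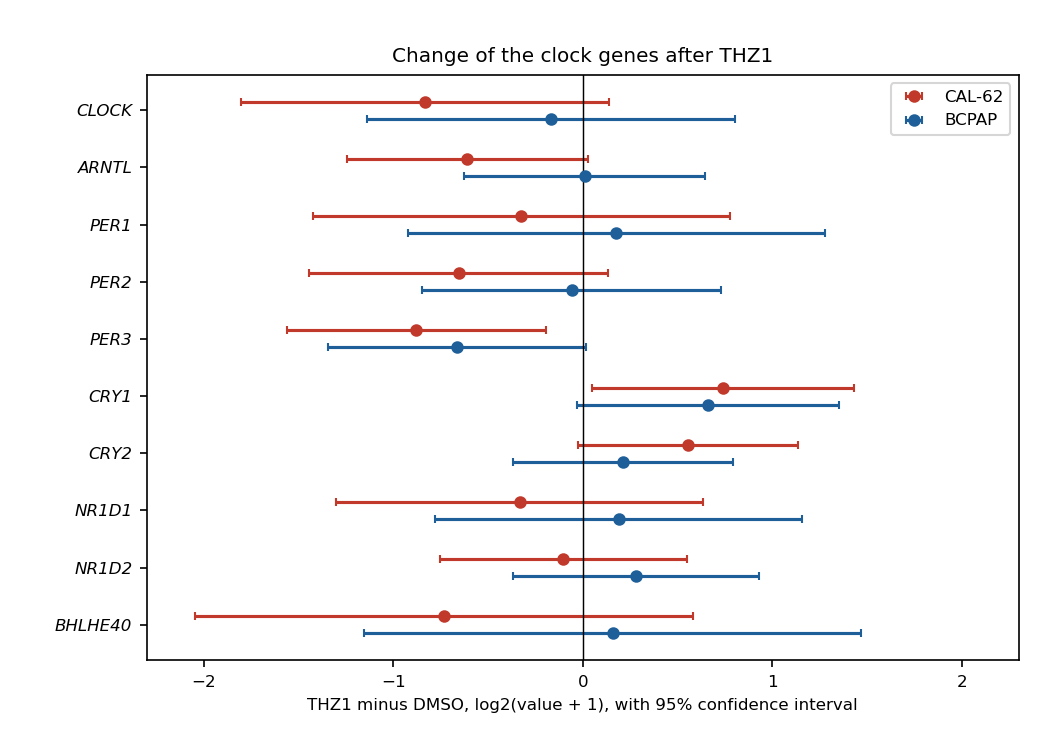
Change of each clock gene after THZ1, as THZ1 minus DMSO in log2(value + 1) on the horizontal axis, with 95% confidence intervals from limma, CAL-62 in red above BCPAP in blue. The CAL-62 intervals of PER3 (-1.56 to -0.19) and CRY1 (0.05 to 1.43) leave out 0 before adjustment, and all other intervals include it.

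The median change of the 10 clock genes was -0.47 in CAL-62 with 8 of 10 negative. Over all genes the median was 0.031, with 5481 of 11362 negative. In BCPAP the median of the clock genes was 0.17 with 7 of 10 positive, beside 0.067 over all genes with 6880 of 11743 positive. Of the 8 negative values in CAL-62, 4 turned positive without DMSO library 2, those of PER1, NR1D1, NR1D2 and BHLHE40. The difference between the lines was tested as an interaction. By limma 0 of 10 clock genes differed in their response, where 0% of 10653 genes were called, and 0 had an unadjusted p under 0.05, against 5.28% of all genes. The differences, CAL-62 minus BCPAP, ran from -0.89 (BHLHE40) to 0.34 (CRY2). That of CRY1 was 0.08 (95% interval -0.90 to 1.06) and that of PER3 -0.21 (95% interval -1.18 to 0.75). The smallest adjusted p by limma was 0.843, for ARNTL, at a difference of -0.62 (95% interval -1.52 to 0.28). Each of these 3 intervals holds 0 and, on 1 side, a difference of more than 1 on the log2 scale. The BHLHE40 difference was 0.125 without CAL-62 DMSO library 2. With 0.1 in place of 1 added to the values, PER2 had the lowest difference, at -1.05, and PER3 had -0.51.

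How large the CAL-62 changes were depended on the scaling, because the deposited values set a typical gene level between the libraries of a line. With the sums of values made equal, the median of all genes in CAL-62 was -0.51, and with 77 ribosomal protein genes as reference it was -0.78. PER3 and ARNTL were called with equal sums (limma adjusted p = 0.0303 and 0.0289), and PER3, ARNTL and PER2 with the ribosomal reference (limma adjusted p = 0.0195, 0.014 and 0.0416). Far more genes were then called in all, 2476 and 3257 of 11362. Relative to the median of all genes, PER3 lay at -0.91 as deposited, -0.78 with equal sums and -0.74 with the ribosomal reference. ARNTL lay at -0.64, -0.66 and -0.67 in the same order, and CRY1 at 0.71, 0.64 and 0.61. CRY2 lay at 0.52, 0.57 and 0.59. A scaling moves all genes of a library together, so these distances from the median could hardly change and the 3 scalings are not separate support. The sign of the CRY1 and CRY2 changes themselves turned with the ribosomal reference.

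**Figure D3:**
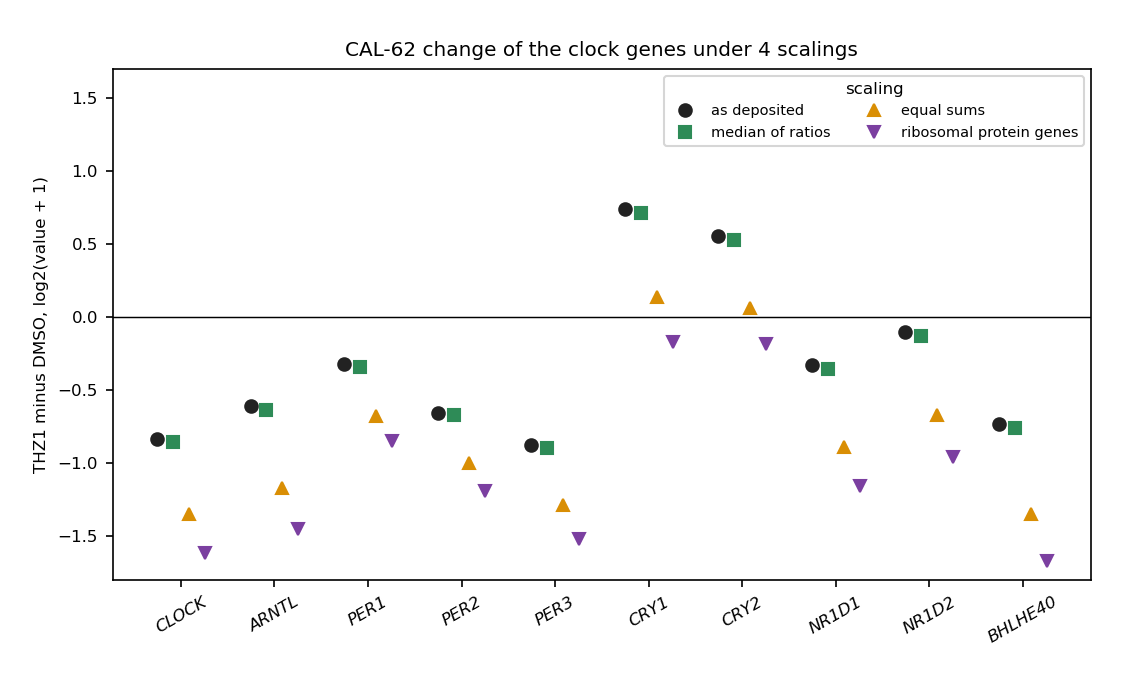
CAL-62 change of each clock gene, THZ1 minus DMSO in log2(value + 1), under 4 scalings of the libraries, each drawn as a point without error bars. Equal sums and the ribosomal reference move all 10 genes down together, and CRY1 moves from 0.74 as deposited to -0.17 with the ribosomal reference.

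Levels of the clock genes in the lines are given side by side without a test, because the tables of the lines appear to have been scaled separately. BHLHE40 had the highest level per length of the 10 genes in every group, at 24.2 ± 1.97 with THZ1 and 51.7 ± 45.2 with DMSO in CAL-62, and at 42.0 ± 12.4 with THZ1 and 36.9 ± 4.29 with DMSO in BCPAP (SD, n = 2 each). In CAL-62 DMSO libraries CRY1, ARNTL, NR1D1, NR1D2 and CLOCK followed, with means between 6.56 and 12.7, and no neighbours in that run were apart beyond their libraries. PER3, CRY2, PER2 and PER1 came last, between 1.88 and 3.31, each overlapping with its neighbour within this run. Both libraries of CLOCK were above both of PER3. In BCPAP DMSO libraries NR1D2 (15.5 ± 2.29) and ARNTL (13.1 ± 3.42) followed BHLHE40 and overlapped with each other. NR1D1, PER3, CRY1, CLOCK, PER1 and CRY2 came next, between 3.70 and 8.02, each overlapping with its neighbour within this run. PER2 was lowest at 2.65 ± 0.0475, with both libraries below both of CRY2. With THZ1, CRY1 at 21.3 ± 2.01 stood well above NR1D2, the next gene in CAL-62, and just below BHLHE40, whose lower library had 22.8 against 22.7 in the higher one of CRY1. PER2 had the lowest mean with THZ1 in both lines, at 0.945 ± 0.691 in CAL-62, where it overlapped with PER1, and at 2.52 ± 0.324 in BCPAP, where it did not overlap with PER3 next to it.

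Between the lines under DMSO, CRY1 was the clock gene with both CAL-62 libraries above both BCPAP libraries, 12.7 ± 4.30 in CAL-62 and 7.07 ± 1.25 in BCPAP, as were 33.3% of all genes. PER3, CRY2, NR1D2 and ARNTL had both CAL-62 libraries below both BCPAP libraries, which 33.3% of all genes also had. PER3 had 3.31 ± 0.976 in CAL-62, which was 0.453 times the 7.31 ± 0.773 in BCPAP. NR1D2 had 8.71 ± 1.89 in CAL-62, which was 0.56 times the 15.5 ± 2.29 in BCPAP. The levels of the other 5 genes overlapped between the lines.

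Of 28 further clock genes, listed by their role, 21 were tested in each line. None was called in either line by limma, 7 of 21 had an unadjusted p under 0.05 in CAL-62, against 30.1% of all genes, and 2 of 21 had one in BCPAP, against 4.01%. The interaction test by limma found 0 of 20 with a different response in the lines, and 1 of 20 had an unadjusted p under 0.05, against 5.28% of all genes. Their median change was -0.09 in CAL-62 and 0.13 in BCPAP. In CAL-62, 6 of 21 had both THZ1 libraries above both DMSO libraries, against 30.1% of all genes, and 6 of 21 both below, against 27.4%. In BCPAP 10 of 21 were above, against 21.9% of all genes, and 2 of 21 below, against 16.4%. The paralogs of the activators, NPAS2 and ARNTL2, had changes of 0.19 to 0.35 in CAL-62 and of -0.25 to 0.17 in BCPAP. The kinases, ubiquitin ligase parts and partners that act on PER and CRY proteins were split in CAL-62. There 6 of 10 were positive, beside 5881 of all 11362 genes, in a range from -0.80 to 0.77. In BCPAP 9 of these 10 were positive, beside 6880 of all 11743 genes, in a range from -0.34 to 0.40. The PAR bZIP output factors and their antagonist NFIL3 ran from -1.15 to -0.31 in CAL-62 over 3 genes, and from -0.76 to 0.37 in BCPAP. The deacetylase SIRT1 and the output genes ran from -1.06 to 0.42 over 5 genes in CAL-62 and from -0.12 to 0.66 over 4 genes in BCPAP. Of the ROR receptors, the activators at RORE elements, RORA was listed in BCPAP alone, with a change of 0.13.

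The PAR bZIP gene TEF and the E-box repressor gene BHLHE41 were the further clock genes with both THZ1 libraries below both DMSO libraries in each line, and are named here after their values were seen. That is 2 of 20 genes, near the 11.2% of all genes with this order in both lines. The opposite order, THZ1 above DMSO in each line, was seen in 6 of 20, against 13.3% of all genes. DDB1 was among those 6 and is also named after its values were seen. It changed by 0.77 in CAL-62 (limma adjusted p = 0.0653) and by 0.32 in BCPAP (limma adjusted p = 0.932). BHLHE41, the paralog of BHLHE40, had 0.249 and 0.538 in the CAL-62 THZ1 libraries, against 1.07 and 1.85 with DMSO (change -0.81, limma adjusted p = 0.0998). In BCPAP it had 4.18 and 3.36 with THZ1, against 6.31 and 8.58 with DMSO (change -0.82, limma adjusted p = 0.932). The THZ1 mean of BHLHE41 was 0.27 times the DMSO mean in CAL-62 and 0.506 times in BCPAP, as the 1 added to the values weighs more on the lower CAL-62 values. Those in CAL-62 rested on 13 and 38 reads with THZ1 and 87 and 165 reads with DMSO. TEF, which binds D-box elements, had 0.570 and 0.853 in the CAL-62 THZ1 libraries, against 1.76 and 4.15 with DMSO (change -1.15, limma adjusted p = 0.0725). In BCPAP it had 2.05 and 2.02 with THZ1, against 3.54 and 4.80 with DMSO (change -0.76, limma adjusted p = 0.932). BHLHE41 and BHLHE40 were not tested against each other. DBP, a relative of TEF and a direct target of the activators, was instead marked by the library number, with library 2 between 1.99 and 3.75 times library 1 in the 4 groups.

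**Figure D4:**
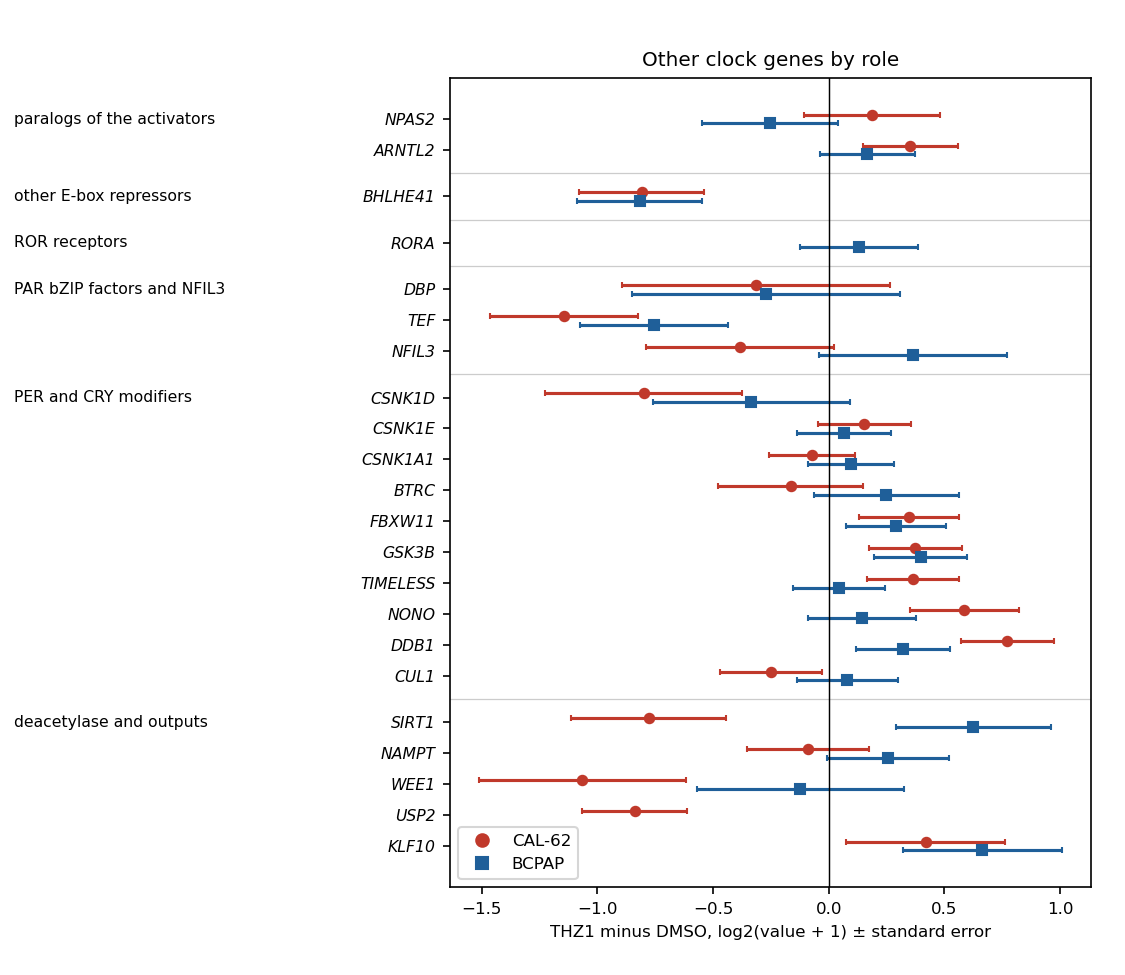
Change of the further clock genes after THZ1, as THZ1 minus DMSO in log2(value + 1) with the standard error from limma, grouped by role, CAL-62 as red circles above BCPAP as blue squares. TEF and BHLHE41 lie left of 0 in both lines, SIRT1 lies at -0.78 in CAL-62 and at 0.62 in BCPAP, and none of the genes passed the test.

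To see which genes shared the pattern of the clock genes with the highest and lowest CAL-62 change, each line's mean was subtracted and all 8 libraries were compared over 7915 genes whose mean value reached 5. CRY1 was most like HHEX, a homeobox transcription factor gene (Pearson r = 0.981), SNHG9, a host gene of small nucleolar RNA (r = 0.981), and PSMD14, a proteasome subunit gene (r = 0.978). PER3 was most like C20orf72 (r = 0.982), C22orf13 (r = 0.979) and SEPHS2, a gene of selenoprotein synthesis (r = 0.978). The libraries share their line, number and scaling, and these are the highest of all values compared over 8 libraries, so they are a description.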

How the data were processed

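The clock genes and the further lists were chosen with earlier results of these data known. Poly(A)-selected RNA of 8 libraries (CAL-62 and BCPAP, THZ1 or DMSO, 2 each) was used. The authors' deposited values are 1 RPKM-type value per gene and library, a unit inferred from the values. Per the submitters' processing notes, Bowtie2, DESeq2 and hg19 were used, without roles; no annotation or strand setting is stated in the sources used here. Values are whole reads over a whole length for 12714 of 12715 genes within 0.02 reads, which gave reads per gene. Tables list genes with a DMSO mean above 1, 11513 in CAL-62 and 11900 in BCPAP. The library totals departed by at most 2.22% from size factors of a line's own libraries and by up to 4.73% from those over all 8, so the lines were not tested against each other, as had been planned. The protein comparison planned was not run.

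limma 3.58.1 in R 4.3.3 was fitted with a mean-variance trend to log2(value + 1), on genes with a mean of at least 1, with 4 group means, two-sided tests and Benjamini-Hochberg adjustment over all genes, at 0.05. The scale understates changes of low genes. The code was tested on simulated data. All 10 clock genes passed the filter. Further clock genes were to be given values if called, and otherwise ranges by role; exceptions are marked. A further clock gene and a thyroid marker of the planned lists are not reported here. The median depth of a library was 399 to 730 reads per gene.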

Additional observations from a re-analysis of the deposited data

Results flagged for a closer look

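Among the clock genes and the further clock genes described, SIRT1 had both THZ1 libraries below both DMSO libraries in CAL-62 and above them in BCPAP. It was picked for this order. Taken singly, 27.4% of all genes were below in CAL-62 and 21.9% above in BCPAP. The share of all genes with both orders was not counted. The SIRT1 difference did not pass the interaction test. SIRT1, a deacetylase that acts on clock proteins, had 8.53 and 5.20 with THZ1 and 11.1 and 13.3 with DMSO in CAL-62. In BCPAP it had 17.4 and 10.1 with THZ1 and 9.70 and 7.004 with DMSO. The change in CAL-62 minus that in BCPAP was -1.40 (SE 0.47, 95% interval -2.50 to -0.31, limma adjusted p = 0.834).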

How the results depend on the processing

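With 2 libraries a group and low counts for PER1, PER2 and PER3, few changes could pass, and a p that missed the threshold does not show that a gene was level. In the alternatives that kept 2 libraries a group, 0 of all genes tested were called in BCPAP. In the difference 0 were called, or 1 with 0.1 in place of 1 added to the values. The count of clock genes called there was also 0, which says nothing particular about the clock. In CAL-62 it was 2 with equal sums, 3 with the ribosomal protein reference and 5 with a replicate block within each line (ARNTL, CLOCK, CRY1, PER2 and PER3), and 0 in the others. The block called 4563 genes in all, against 525 without it. Over all CAL-62 genes, equal sums called 2476, the ribosomal reference 3257, each line fitted alone 0, limma-voom on recovered reads 0, and leaving out 1 library 0 to 833. Same-numbered libraries deviated together (r = 0.464 in CAL-62, 0.779 in BCPAP), but with 2 pairs a line and no label for the number the pairing is not established. The test of the lines under DMSO was not run, and the difference has no limma-voom value.

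Signs turned as follows, with values on the log2(value + 1) scale, and the cause was not tested. With the ribosomal reference, the CAL-62 changes were -0.171 (CRY1) and -0.183 (CRY2), and the differences, CAL-62 minus BCPAP, were -0.613 (CRY1) and -0.207 (CRY2). The CRY1 difference was -0.316 with equal sums. In BCPAP, equal sums gave PER1 -0.0163, NR1D1 -0.0195, BHLHE40 -0.0682 and ARNTL -0.205, and the ribosomal reference gave -0.0237, -0.0279, -0.0768 and -0.214. Median-of-ratios scaling gave ARNTL -0.0263.

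Leaving out 1 library moved these changes across 0. In CAL-62, where it was DMSO library 2 each time, PER1 ranged from -0.934 to 0.286, NR1D1 from -1.03 to 0.362, NR1D2 from -0.302 to 0.0987 and BHLHE40 from -1.75 to 0.282. In BCPAP, PER1 ranged from -0.253 to 0.608, PER2 from -0.153 to 0.0356, NR1D2 from -0.0436 to 0.606, BHLHE40 from -0.141 to 0.455, ARNTL from -0.239 to 0.261 and CLOCK from -0.716 to 0.385. The differences ranged from -1.11 to 0.109 (PER1), -0.536 to 0.109 (PER3), -0.248 to 0.405 (CRY1), -1.21 to 0.173 (NR1D1) and -1.91 to 0.125 (BHLHE40).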
